A study of Mus musculus with 4 samples.

Results

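Colony-stimulating factors are secreted proteins that keep myeloid cells alive and instruct their growth and differentiation. The 7 genes of this family measured here are the 3 ligand genes Csf1, Csf2 and Csf3 and the 4 receptor genes Csf1r, Csf2ra, Csf2rb and Csf3r. They were taken by symbol from the 32286 features counted in each library, and all 7 were present. CSF1 (M-CSF) acts on monocytes and macrophages through the tyrosine kinase receptor CSF1R. CSF2 (GM-CSF) binds a receptor made of the specific chain CSF2RA and the signalling chain CSF2RB, which the receptors for IL-3 and IL-5 share. CSF3 (G-CSF) drives neutrophil production through CSF3R, a homodimeric receptor that signals through JAK kinases and STAT3. In injured and dystrophic muscle, macrophages and neutrophils are the main cells that carry these receptors, while stromal cells are a known source of the ligands.

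The study measured single-cell RNA from skeletal muscle of mice that model the dystrophin-deficiency disease DMD (Duchenne muscular dystrophy), after delivery of CRISPR components in lipid nanoparticles (LNPs). It had 4 libraries, 1 for each combination of treatment and isolation: LNP-CRISPR bulk, LNP-CRISPR kit, vehicle bulk and vehicle kit. Bulk libraries held cells labelled as bulk muscle, and kit libraries held cells from a satellite cell isolation kit, which enriches muscle stem cells. All 4 came from the DMD model, so no library held healthy muscle, and the mutation, strain, age, dose, route, time after delivery and number of animals are not given in the sources used here. With 1 library per group there was no spread between replicates of a group, and no test was made. Every interval below covers counting error only.

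The libraries held 1317 barcodes in LNP-CRISPR bulk, 2207 in LNP-CRISPR kit, 1305 in vehicle bulk and 1683 in vehicle kit, with 25921795 to 40666916 unique molecular identifiers (UMIs, counts of distinct RNA molecules) per library. A total of 5651 of 6512 barcodes were kept as cells, and 6 barcode sequences occurred in 2 libraries. The feature list included a Cas9 row, which had 36382 UMIs in LNP-CRISPR bulk, 10351 in LNP-CRISPR kit and 0 in both vehicle libraries. Cells were clustered without the CSF genes and named from marker genes of other families. The bulk libraries were mainly fibro-adipogenic progenitor-like (FAP-like) cells, with 465 in LNP-CRISPR bulk and 664 in vehicle bulk. They also held 180 and 203 macrophage- or monocyte-like cells, 59 and 57 dendritic-like cells, 155 and 33 neutrophil-like cells, and 50 and 33 T or NK-like cells (LNP-CRISPR bulk first in each pair). The kit libraries were mainly satellite-like cells, with 601 in LNP-CRISPR kit and 532 in vehicle kit. Levels are given as UMIs per 1000000 nuclear-encoded UMIs of a class (CPM).

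Sequences of the ligand genes are shown because both their promoters and the ends of their RNAs are known to control how much ligand is made. Csf1 lies at chr3:107741048-107760469 on the minus strand and Csf2 at chr11:54247271-54249667 on the minus strand (GRCm38, GENCODE M21). Csf3 lies on the same chromosome as Csf2, at chr11:98701263-98703629 on the plus strand. The RNAs of Csf2 and Csf3 carry AU-rich stretches in the 3′ untranslated region (UTR), to which the decay factor ZFP36 (tristetraprolin) is known to bind. The 30 bases with the most whole ATTTA pentamers are shown for both, with each pentamer in capitals, from the longest GENCODE 3′ UTR of the gene.
Csf2: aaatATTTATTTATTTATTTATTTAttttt
Csf3: tatctctATTTAatATTTAtgcatATTTAa
The Csf2 stretch held 5 overlapping pentamers in a row, whereas the 3 pentamers of the Csf3 stretch were separated. The whole Csf2 3′ UTR of 317 bases had 9 pentamers, or 28.4 per 1000 bases, and the Csf3 3′ UTR of 669 bases had 6, or 8.97 per 1000 bases. The Csf1 3′ UTR was longer, at 2111 bases, and had 4 pentamers, or 1.89 per 1000 bases. The longer core TTATTTATT occurred 4 times in Csf2, with overlaps, and in none of the other 6 genes, while 7.66% of 21020 mouse 3′ UTRs had at least 1 match. Csf2ra, Csf2rb and Csf3r had no ATTTA, which 65.2% of 3′ UTRs held. This search was added after the values below were known.

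RefSeq promoter windows (GRCm38.p6, 250 bases before to 50 bases after the start site) were matched for 4 of the 7 genes, Csf1, Csf2, Csf2ra and Csf3r. The 250 bases before the start site are shown for Csf1, found in most FAP-like cells, and Csf2, found in few, both on the minus strand. They lie at chr3:107760470-107760719 and chr11:54249900-54250149. Capitals mark a match to a searched motif.
Csf1: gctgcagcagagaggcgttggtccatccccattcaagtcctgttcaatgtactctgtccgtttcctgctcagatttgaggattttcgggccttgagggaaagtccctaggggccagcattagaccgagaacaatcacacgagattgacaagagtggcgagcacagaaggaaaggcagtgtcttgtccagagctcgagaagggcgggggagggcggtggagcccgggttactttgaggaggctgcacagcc
Csf2: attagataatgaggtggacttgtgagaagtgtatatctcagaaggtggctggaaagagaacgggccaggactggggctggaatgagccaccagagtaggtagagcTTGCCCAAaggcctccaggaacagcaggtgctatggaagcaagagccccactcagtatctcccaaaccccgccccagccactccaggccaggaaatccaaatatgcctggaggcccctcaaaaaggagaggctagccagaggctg
A set of 6 motifs were searched on both strands: TGANTCA (AP-1), GAGATTCC (CK-1 type, known from cytokine genes), GGGNNTTCC (NF-kB type), TTNNGNAA (C/EBP type), GAGGAAGT (PU.1 type) and TATAAA. The Csf2 window had 1 match to the C/EBP type, 145 bases before the start site on the strand opposite to the gene, a motif that 40.7% of 32851 promoter windows held. The Csf2ra window had 1 match to the same motif, and the windows of Csf1 and Csf3r had no match to these 6 letter strings. The NF-kB string covers 9 bases only, so 10-base NF-kB sites were not searched. The RefSeq start of Csf2 lies upstream of the GENCODE gene start, so the window above does not cover the bases just before the GENCODE start.

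Csf1, the macrophage growth factor, was found in most FAP-like cells, which held most of it in both bulk libraries. Of the pericyte- or smooth muscle-like cells, 8 of 27 in LNP-CRISPR bulk and 5 of 27 in vehicle bulk had it. FAP-like cells had 323 CPM (95% interval 314 to 332) in LNP-CRISPR bulk and 328 CPM (321 to 336) in vehicle bulk, a ratio of 0.984 (0.948 to 1.02). The intervals of the 2 libraries overlap. Csf1 was detected in 82.4% of FAP-like cells of LNP-CRISPR bulk and 87.8% of those of vehicle bulk, against 5.08% and 7.02% of dendritic-like cells. The median depth of a cell was 27618 and 29076.5 UMIs in the FAP-like class and 14181 and 17851 UMIs in the dendritic-like class. FAP-like cells held 89.0% of Csf1 UMIs in LNP-CRISPR bulk and 95.4% in vehicle bulk, while they held 61.6% and 70.3% of all nuclear-encoded UMIs.

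Within the FAP-like cells, Csf1 differed more between clusters than between treatments. It was highest in the cluster led by the chemokine genes Cxcl5 and Cxcl9, at 506 CPM in LNP-CRISPR bulk and 560 CPM in vehicle bulk (ratio 0.904, 0.855 to 0.955). The proliferating cluster led by Mki67 had 344 and 403 CPM (0.853, 0.784 to 0.928), and the Pi16 cluster, whose lead gene marks adventitial progenitors, had 220 and 249 CPM (0.882, 0.824 to 0.943). The Gdf10 cluster had 182 and 177 CPM (1.03, 0.892 to 1.18). Another, shallow FAP-like cluster led by Apod and Gpc3 had 40.9 CPM in LNP-CRISPR bulk, from 6 UMIs in 35 cells, and was not compared because vehicle bulk had 19 of its cells. In 3 of the 4 clusters with at least 20 cells in both libraries the level was thus lower in LNP-CRISPR bulk with an interval below 1, although the class as a whole had a ratio near 1. The Gdf10 cluster, the lowest of these 4, made up 68 of 465 FAP-like cells in LNP-CRISPR bulk and 195 of 664 in vehicle bulk.

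Neutrophil-like cells had Csf1 at a level at least as high as the FAP-like class. They had 537 CPM (468 to 612) in LNP-CRISPR bulk, from 222 UMIs, and 342 CPM (225 to 498) in vehicle bulk, from 27 UMIs, a ratio of 1.57 (1.05 to 2.43). The rank of neutrophil-like and FAP-like cells differed by library: their intervals were apart in LNP-CRISPR bulk and overlapped in vehicle bulk. Neutrophil-like cells were shallow, with median depths of 2573 and 1637 UMIs. Macrophage- or monocyte-like cells had little Csf1, 19.4 CPM in LNP-CRISPR bulk and 8.83 CPM in vehicle bulk (2.19, 1.35 to 3.64). The difference lay in their cluster led by C1qa, with 43 and 13 UMIs (3.33, 1.76 to 6.74), 12 of the 43 in 1 cell. Their cluster led by Chil3 and Ly6c2 had 13 UMIs in each library (1.05, 0.449 to 2.46), 9 of those of vehicle bulk in 1 cell. In macrophage- or monocyte-like cells the 8 FAP markers, all detected, summed to 358 CPM in LNP-CRISPR bulk and 218 CPM in vehicle bulk. The part of these markers in the Csf1 result was not tested.

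Satellite-like cells, the muscle stem and progenitor cells, held most Csf1 UMIs of the kit libraries, 86.9% in LNP-CRISPR kit and 90.3% in vehicle kit. They held 70.4% and 76.7% of all nuclear-encoded UMIs there. They had 77.0 CPM (73.7 to 80.5) in LNP-CRISPR kit and 51.7 CPM (48.6 to 55.0) in vehicle kit, a ratio of 1.49 (1.38 to 1.61). In the bulk libraries the same class had 54.3 CPM (43.0 to 67.7) from 36 cells in LNP-CRISPR bulk and 46.6 CPM (37.9 to 56.6) from 43 cells in vehicle bulk, intervals that overlap. In 4 of the 5 satellite-like kit clusters with at least 20 cells per library, Csf1 was higher in LNP-CRISPR kit, with ratios of 1.29 to 1.91. The exception was the small differentiating cluster led by Cdkn1c and Myog, with 10.1 CPM in LNP-CRISPR kit and 25.7 CPM in vehicle kit, from 8 and 22 UMIs (0.393, 0.151 to 0.916). A single vehicle kit cell held 14 of those 22 UMIs, and 7 cells had Csf1 in each library, so the lower ratio leaned on that cell. The 8 FAP markers, all detected in satellite-like kit cells, summed to 40.8 CPM in LNP-CRISPR kit and 53.4 CPM in vehicle kit, and their part in the result was not tested.

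Tenocyte-like cells, the tendon fibroblasts, had 205 CPM (173 to 241) in LNP-CRISPR kit from 38 cells and 58.6 CPM (35.8 to 90.5) in vehicle kit from 24 cells (3.5, 2.18 to 5.89), but 88.0 and 78.4 CPM in the bulk pair. Pericyte- or smooth muscle-like, glial-like and fibre-like cells of the kit libraries had 2.92 to 20.1 CPM. Il34, which encodes the second ligand of CSF1R, was at 12.9 CPM in FAP-like cells of LNP-CRISPR bulk and 12.7 CPM in those of vehicle bulk. In the pericyte- or smooth muscle-like class of the kit pair, Il34 was at 53.6 CPM in LNP-CRISPR kit and 31.3 CPM in vehicle kit (1.71, 1.33 to 2.22).

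**Figure D1:**
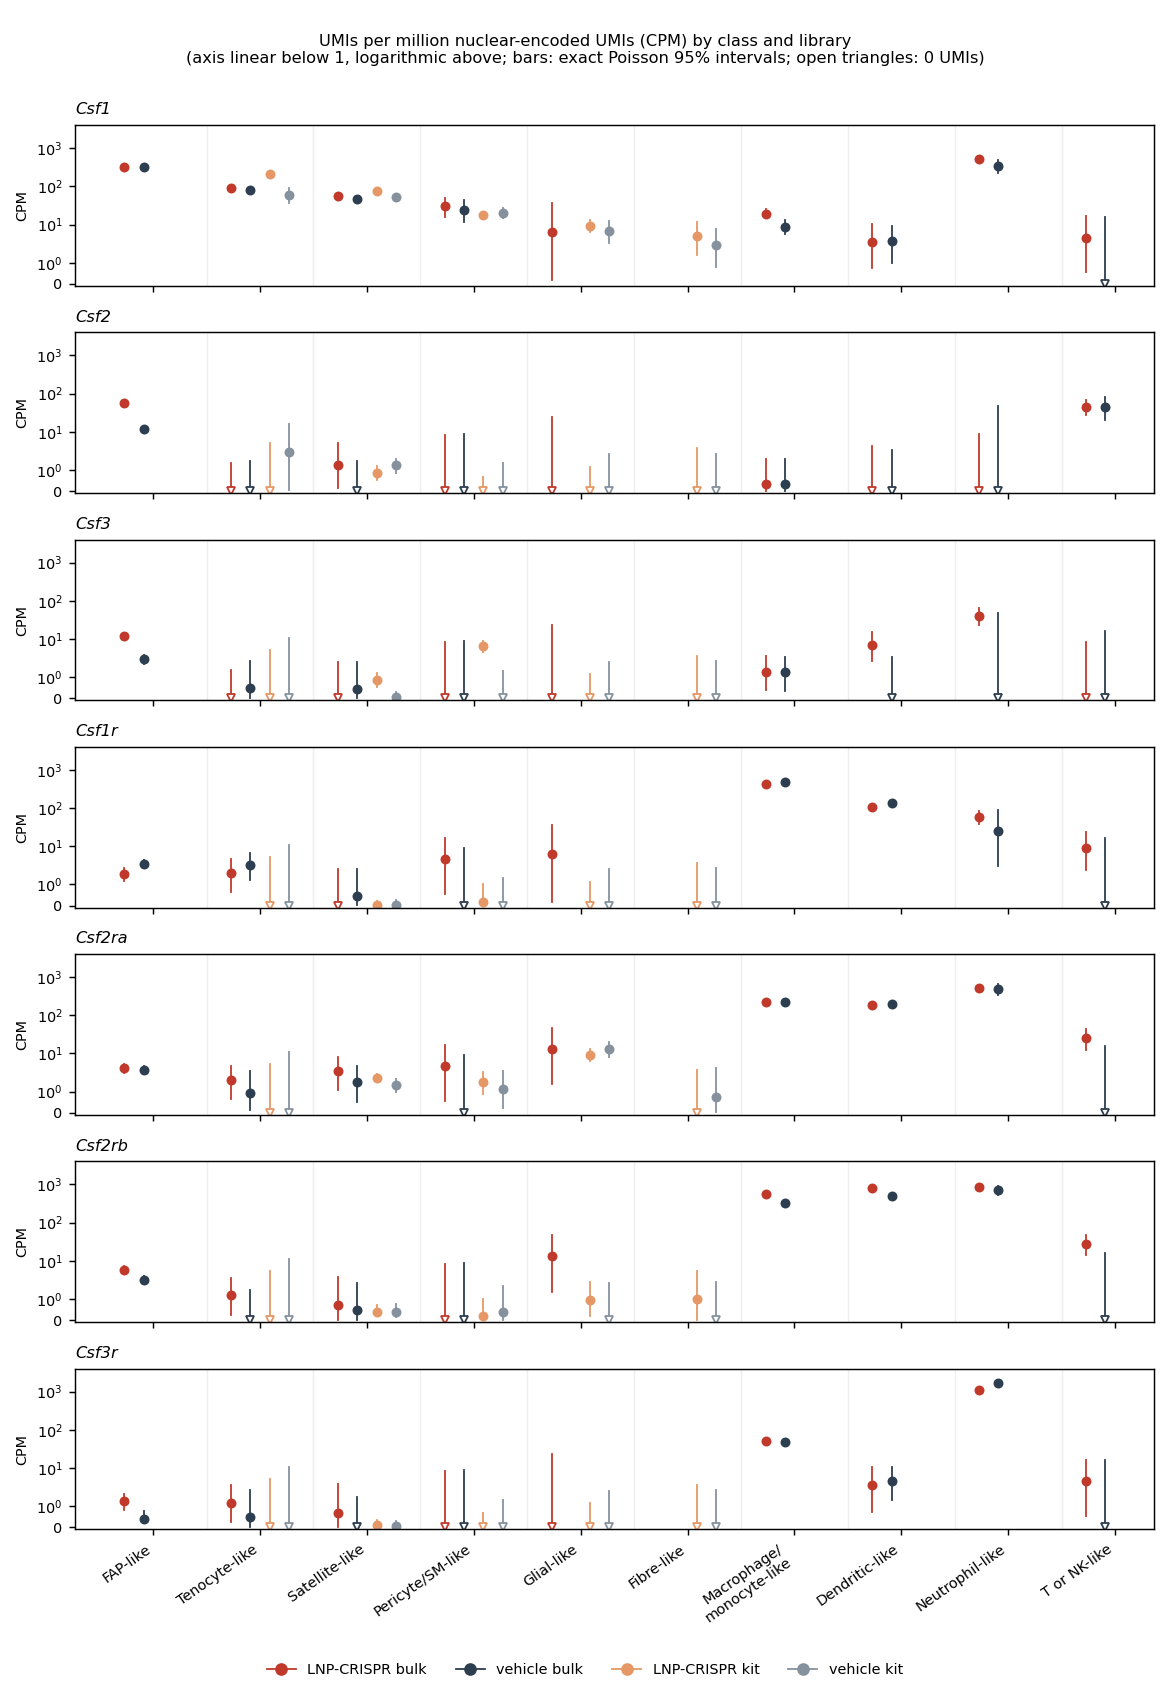
Level of each gene (y axis, CPM, linear below 1 and logarithmic above) in each class (x axis) and library (colours), with exact Poisson 95% intervals and open triangles for 0 UMIs. In LNP-CRISPR bulk and vehicle bulk, Csf1 is at 323 and 328 CPM in FAP-like cells and 29.7 and 24.0 CPM in pericyte- or smooth muscle-like cells. Csf2 is at 58.4 and 12.0 CPM in FAP-like cells of these libraries, where the receptor genes are highest in the myeloid classes.

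Csf2, the GM-CSF gene, came from few cells and was higher in FAP-like cells of LNP-CRISPR bulk. FAP-like cells had 875 UMIs in 35 of 465 cells in LNP-CRISPR bulk and 268 UMIs in 18 of 664 cells in vehicle bulk. These are 58.4 CPM (54.6 to 62.4) and 12.0 CPM (10.6 to 13.5), a ratio of 4.88 (4.25 to 5.62). The share of FAP-like cells with a UMI was 7.53% (exact binomial 5.30 to 10.3) and 2.71% (1.61 to 4.25). Macrophage- or monocyte-like cells, a class with almost none, had 0.556% and 0.493%. After thinning each cell to 1000 UMIs, the FAP-like shares were 2.0% and 0.302%. UMIs of 1 cell are not independent draws of the class, so the interval of the ratio is too narrow for a gene held by few cells. Without the highest cell of each library, which had 151 and 62 UMIs, the ratio was 5.27.

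The cells with Csf2 were spread unevenly, and the same held in both libraries. The 3 highest FAP-like cells had 40.5% of the class's Csf2 UMIs in LNP-CRISPR bulk and 58.2% in vehicle bulk, and 16 and 8 cells had at least 10 UMIs. The median among cells with a UMI was 7.0 in LNP-CRISPR bulk and 7.5 in vehicle bulk. Of the Csf2 cells, 34 of 35 and 18 of 18 also had Csf1, beside 383 of 465 and 583 of 664 of all FAP-like cells. By cluster, the Mki67 cluster had 496 UMIs in 11 of 33 cells in LNP-CRISPR bulk and 53 UMIs in 3 of 48 cells in vehicle bulk, or 187 and 15.4 CPM. The Pi16 cluster had 29.4 and 7.50 CPM (3.92, 2.96 to 5.25), and the Cxcl5 cluster had 43.8 and 28.1 CPM (1.56, 1.25 to 1.94). The Gdf10 cluster had none in either library.

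T or NK-like cells, a known source of GM-CSF, had Csf2 at 45.0 CPM (27.5 to 69.6) in LNP-CRISPR bulk and 43.4 CPM (20.8 to 79.8) in vehicle bulk, from 20 and 10 UMIs. Their ratio was 1.04 (0.464 to 2.48), an interval that does not exclude a difference of more than 2-fold. In FAP-like cells the 8 T or NK markers, all detected, summed to 3.54 CPM in LNP-CRISPR bulk and 3.08 CPM in vehicle bulk. In the kit libraries, satellite-like cells had 0.854 CPM in LNP-CRISPR kit and 1.34 CPM in vehicle kit, from 22 UMIs in 7 cells and 26 UMIs in 5 cells. Neutrophil-like and dendritic-like cells had 0 UMIs in both bulk libraries, which allows up to 7.25 and 38.0 CPM in neutrophil-like cells and 3.54 and 2.75 CPM in dendritic-like cells at 3 counts of the class total. The exact 95% upper limits are 8.92 and 46.7 CPM in neutrophil-like cells and 4.35 and 3.38 CPM in dendritic-like cells. Tenocyte-like and pericyte- or smooth muscle-like cells also had 0 UMIs in both bulk libraries. Their exact upper limits are 1.51 and 1.74 CPM, and 8.43 and 8.86 CPM.

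Csf3, the G-CSF gene, was sparser still, and single cells set its level. FAP-like cells had 182 UMIs in 11 cells in LNP-CRISPR bulk and 66 UMIs in 7 cells in vehicle bulk, or 12.2 CPM (10.5 to 14.1) and 2.95 CPM (2.28 to 3.75). The ratio was 4.12 (3.1 to 5.55). In vehicle bulk 1 cell held 60 of the 66 UMIs and the other 6 cells had 1 each, while in LNP-CRISPR bulk the highest cell had 81 UMIs and 6 cells had at least 10. Without the highest cell of each library the ratio was 25.2 (11.2 to 70.2). Both Csf2 and Csf3 were found in 0 FAP-like cells of LNP-CRISPR bulk and 1 of vehicle bulk, counts too small to say whether the same cells hold them.

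The library-wide level of Csf3 did not follow the FAP-like cells. Over all kept cells, Csf3 was at 8.64 CPM in LNP-CRISPR bulk and 8.16 CPM in vehicle bulk. In vehicle bulk, 188 of its 260 UMIs came from 3 of the 5 cells of a small unnamed cluster in which the endothelial markers Pecam1, Cdh5, Kdr, Flt1, Cldn5, Tie1 and Emcn were enriched but the lymphatic gene Ccl21a led, and 1 of those cells had 153. The same cluster had 8 cells in LNP-CRISPR bulk and no Csf3 UMI. Neutrophil-like cells had 17 Csf3 UMIs in 4 of 155 cells in LNP-CRISPR bulk and 0 in 33 cells in vehicle bulk. The vehicle class was shallow, and the interval of the ratio, from 0.787 upward, includes 1. Their level in LNP-CRISPR bulk, 41.1 CPM (23.9 to 65.8), was the highest of the named classes, above the 12.2 CPM (10.5 to 14.1) of FAP-like cells. Dendritic-like cells had 6 UMIs in 4 of 59 cells in LNP-CRISPR bulk and 0 in 57 cells in vehicle bulk. Their interval ran from 1.51 upward, and from 0.523 upward without the highest cell. The kit pair had Csf3 in the pericyte- or smooth muscle-like class, with 36 UMIs in 2 cells in LNP-CRISPR kit and 0 in vehicle kit. A single LNP-CRISPR kit cell held 25 of the 36. The interval of the ratio ran from 4.18 upward, and from 1.13 upward without that cell. UMIs of 1 cell are not independent draws, so both intervals are too narrow. By cells, the counts were 2 of 359 in LNP-CRISPR kit and 0 of 175 in vehicle kit, too few to show a difference. Satellite-like cells had 22 UMIs in 5 cells in LNP-CRISPR kit, 18 of them in 1 cell, and 1 UMI in vehicle kit.

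**Figure D2:**
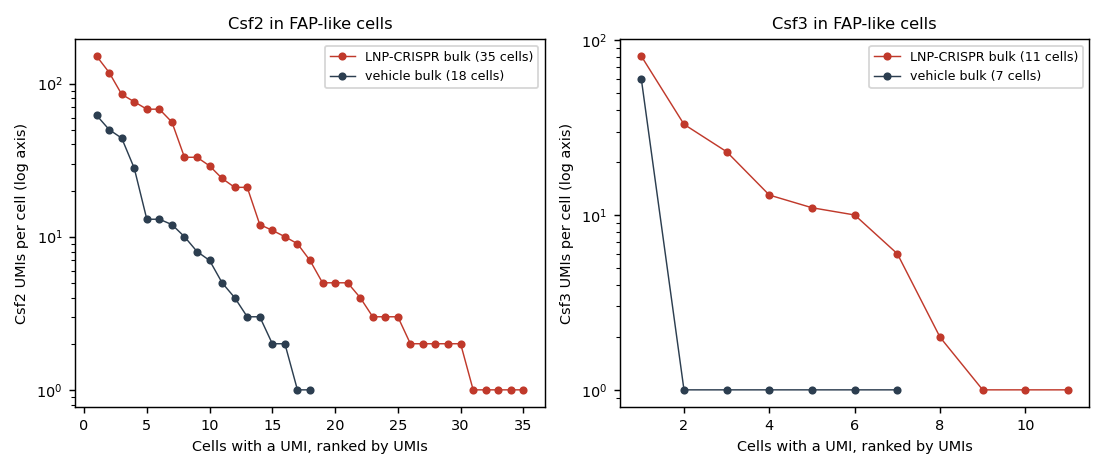
Csf2 (left) and Csf3 (right) UMIs per FAP-like cell (y axis, logarithmic) for the cells with at least 1 UMI, ranked from high to low (x axis), in LNP-CRISPR bulk (red) and vehicle bulk (dark). The LNP-CRISPR curve for Csf2 runs to 35 cells and that of vehicle to 18, and 1 vehicle cell with 60 UMIs carries nearly all vehicle Csf3.

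Cas9 RNA was counted in the LNP-CRISPR libraries, so the ligand genes could be set beside it within a class. Among FAP-like cells of LNP-CRISPR bulk, those with at least 4 Cas9 UMIs had Csf2 at 68.8 CPM (63.7 to 74.1) over 295 cells, and those with 0 Cas9 UMIs had 5.60 CPM (2.05 to 12.2) over 59 cells. The shares of cells with Csf2 were 7.80% (5.01 to 11.5) and 3.39% (0.413 to 11.7), intervals that overlap, and the thinned shares were 2.41% and 1.96%. Csf3 was at 17.8 CPM (15.3 to 20.6) in the Cas9-high cells and 1.87 CPM (0.226 to 6.74) in the Cas9-free cells, from 179 and 2 UMIs. The shares of cells with Csf3 were 3.05% (1.40 to 5.71) and 1.69% (0.0429 to 9.09), which overlap. Csf1 was at 362 CPM in the Cas9-high cells and 301 CPM in the Cas9-free cells. The Cas9-high cells were deeper, with a median of 29593 UMIs against 13220, and cells of 1 library are not replicates. Satellite-like cells of LNP-CRISPR kit had Csf1 at 111 CPM (102 to 121) with at least 4 Cas9 UMIs and 72.2 CPM (67.9 to 76.6) with none. Their median depths were 45451.5 and 22933 UMIs, and their thinned shares of cells with Csf1 were 10.6% and 7.48%. In macrophage- or monocyte-like cells of LNP-CRISPR bulk, Csf1 was lower with at least 4 Cas9 UMIs. It was at 10.9 CPM (6.10 to 18.0) against 17.5 CPM (9.03 to 30.5) with none, intervals that overlap. In pericyte- or smooth muscle-like cells of LNP-CRISPR kit, Csf1 was at 23.5 and 16.9 CPM. All 36 Csf3 UMIs of that class lay in 2 Cas9-free cells, unlike in the FAP-like class. Csf3 had 1 and 2 UMIs in these groups of macrophage- or monocyte-like cells, and 1 and 1 in those of satellite-like kit cells. Cells with at least 1 but fewer than 4 Cas9 UMIs were in neither group. The part of depth in these differences was not tested.

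Csf1r, the CSF1 receptor, marked the macrophage- or monocyte-like cells and was slightly lower in LNP-CRISPR bulk. They had 434 CPM (410 to 459) in LNP-CRISPR bulk and 491 CPM (466 to 517) in vehicle bulk, a ratio of 0.883 (0.818 to 0.953). The intervals of the 2 libraries are apart. The class held 89.0% and 85.4% of Csf1r UMIs in the 2 libraries and 11.9% and 9.24% of all nuclear-encoded UMIs. The C1qa cluster, led by complement genes of resident-type macrophages, had 495 and 561 CPM (0.882, 0.811 to 0.960). The monocyte-type cluster led by Chil3 and Ly6c2 had less, 274 and 316 CPM, with a ratio below 1 as well (0.866, 0.720 to 1.04). The interval of the Ly6c2 cluster includes 1, and both libraries had the C1qa cluster above the Ly6c2 cluster.

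Other classes had little Csf1r. Dendritic-like cells had 106 CPM (85.4 to 131) in LNP-CRISPR bulk and 139 CPM (118 to 163) in vehicle bulk, a ratio of 0.762 (0.580 to 0.995) that was above 1 with finer clusters and after thinning. Neutrophil-like cells had 58.0 and 25.3 CPM from only 24 and 2 UMIs, with an interval of the ratio that includes 1. FAP-like cells had 1.87 and 3.44 CPM, and 1 vehicle cell held 41 of the 77 vehicle UMIs. Csf1r was detected in 4.52% and 4.67% of FAP-like cells, near the 4.59% and 7.41% of tenocyte-like cells, against 87.8% and 93.6% in the macrophage- or monocyte-like class, where the median depth was 15342 and 14175 UMIs.

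Csf2ra, the specific chain of the GM-CSF receptor, was found in all 3 myeloid classes. Neutrophil-like cells had 527 CPM (459 to 602) in LNP-CRISPR bulk and 494 CPM (351 to 675) in vehicle bulk (1.07, 0.756 to 1.54). Macrophage- or monocyte-like cells had 230 and 219 CPM (1.05, 0.939 to 1.17) and dendritic-like cells 184 and 194 CPM (0.947, 0.765 to 1.17). In each class the intervals of the 2 libraries overlap. After thinning, the ratio in dendritic-like cells was 4.33. Glial-like cells of the kit libraries had a low level, 9.34 CPM (6.26 to 13.4) in LNP-CRISPR kit and 13.1 CPM (7.90 to 20.5) in vehicle kit, above the 1.81 and 1.2 CPM of the pericyte- or smooth muscle-like class.

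Csf2rb, the signalling chain, was higher in LNP-CRISPR bulk in macrophage- or monocyte-like and dendritic-like cells. Macrophage- or monocyte-like cells had 549 CPM (522 to 576) in LNP-CRISPR bulk and 317 CPM (297 to 338) in vehicle bulk, a ratio of 1.73 (1.59 to 1.88). Dendritic-like cells had 828 CPM (768 to 892) and 506 CPM (465 to 550), a ratio of 1.64 (1.46 to 1.83). The intervals of the 2 libraries are apart in both classes. Neutrophil-like cells had 829 CPM (744 to 922) and 709 CPM (536 to 921), which overlap (1.17, 0.879 to 1.58). Within the macrophage- or monocyte-like class, the C1qa cluster had 508 and 254 CPM (2.0, 1.80 to 2.23) and the Ly6c2 cluster 655 and 477 CPM (1.37, 1.20 to 1.57). The order of the 2 clusters was thus the reverse of that for Csf1r.

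The share of macrophage- or monocyte-like cells with Csf2rb was 87.2% (81.4 to 91.7) in LNP-CRISPR bulk and 75.9% (69.4 to 81.6) in vehicle bulk, and 36.4% and 24.3% after thinning. Both GM-CSF receptor chains were detected in 79.4% and 69.5% of those cells. FAP-like cells had Csf2rb at 5.74 and 3.12 CPM (1.84, 1.32 to 2.56), and 0.860% and 0.602% of them had both chains. The direction differed by FAP-like cluster. Csf2rb was higher in LNP-CRISPR bulk in the Pi16 cluster (7.37, 3.01 to 21.7) and the Cxcl5 cluster (4.33, 2.19 to 9.33). The Gdf10 cluster had 5.90 and 9.37 CPM (0.629, 0.268 to 1.32), with 19 of its 39 vehicle bulk UMIs in 1 cell. The Mki67 cluster had 1.13 and 4.07 CPM, from 3 and 14 UMIs. In FAP-like cells the 10 macrophage or monocyte markers, all detected, summed to 86.8 CPM in LNP-CRISPR bulk and 29.0 CPM in vehicle bulk, and the 8 neutrophil markers to 142 and 54.5 CPM. The part of that in the receptor RNA of FAP-like cells was not tested. In macrophage- or monocyte-like cells the neutrophil markers summed to 388 and 250 CPM and the dendritic markers to 951 and 773 CPM, with Clec9a and Ccr7 at 0 in vehicle bulk. In dendritic-like cells the 10 macrophage or monocyte markers, all detected, summed to 5902 CPM in LNP-CRISPR bulk and 3784 CPM in vehicle bulk. The part of these sums in the Csf2rb results was not tested.

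Csf2rb has a mouse paralogue, Csf2rb2, which encodes the IL-3-specific beta chain and lies beside it on chromosome 15. Csf2rb2 was at 95.1 CPM in macrophage- or monocyte-like cells of LNP-CRISPR bulk and 47.9 CPM in those of vehicle bulk (1.99, 1.62 to 2.45). In dendritic-like cells it was at 124 and 69.7 CPM (1.78, 1.31 to 2.42). Of the 91-base pieces of a full-length Csf2rb transcript, 8.05% to 8.28% also occurred in Csf2rb2, and 0% of those in its last 1000 bases, where 3′ libraries have most reads. The annotated short Csf2rb transcripts shared up to 18.6% of their pieces, so how the authors' counting split such reads is uncertain.

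Csf3r, the G-CSF receptor, was highest in neutrophil-like cells among the classes and was lower there in LNP-CRISPR bulk. Neutrophil-like cells had 1085 CPM (987 to 1190) from 449 UMIs in LNP-CRISPR bulk and 1634 CPM (1364 to 1942) from 129 UMIs in vehicle bulk, a ratio of 0.664 (0.545 to 0.814). The intervals of the 2 libraries are apart. The share of these cells with Csf3r was 82.6% (75.7 to 88.2) and 84.8% (68.1 to 94.9), and 66.9% and 70.0% after thinning, against 3.87% and 1.2% of FAP-like cells. Averaged with equal weight per cell the ratio was 0.833, and after thinning 0.893. LNP-CRISPR bulk had 155 neutrophil-like cells and vehicle bulk 33. Over all kept cells, Csf3r was at 25.6 CPM in LNP-CRISPR bulk and 8.85 CPM in vehicle bulk. The macrophage or monocyte markers of neutrophil-like cells summed to 7389 CPM in LNP-CRISPR bulk and 4067 CPM in vehicle bulk, with Fcgr1 at 0 in both libraries and Mrc1 and Ccr2 at 0 in vehicle bulk, and their part in the level of Csf3r was not tested. Macrophage- or monocyte-like cells had 50.2 and 46.9 CPM of Csf3r, and their intervals overlap.

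**Figure D3:**
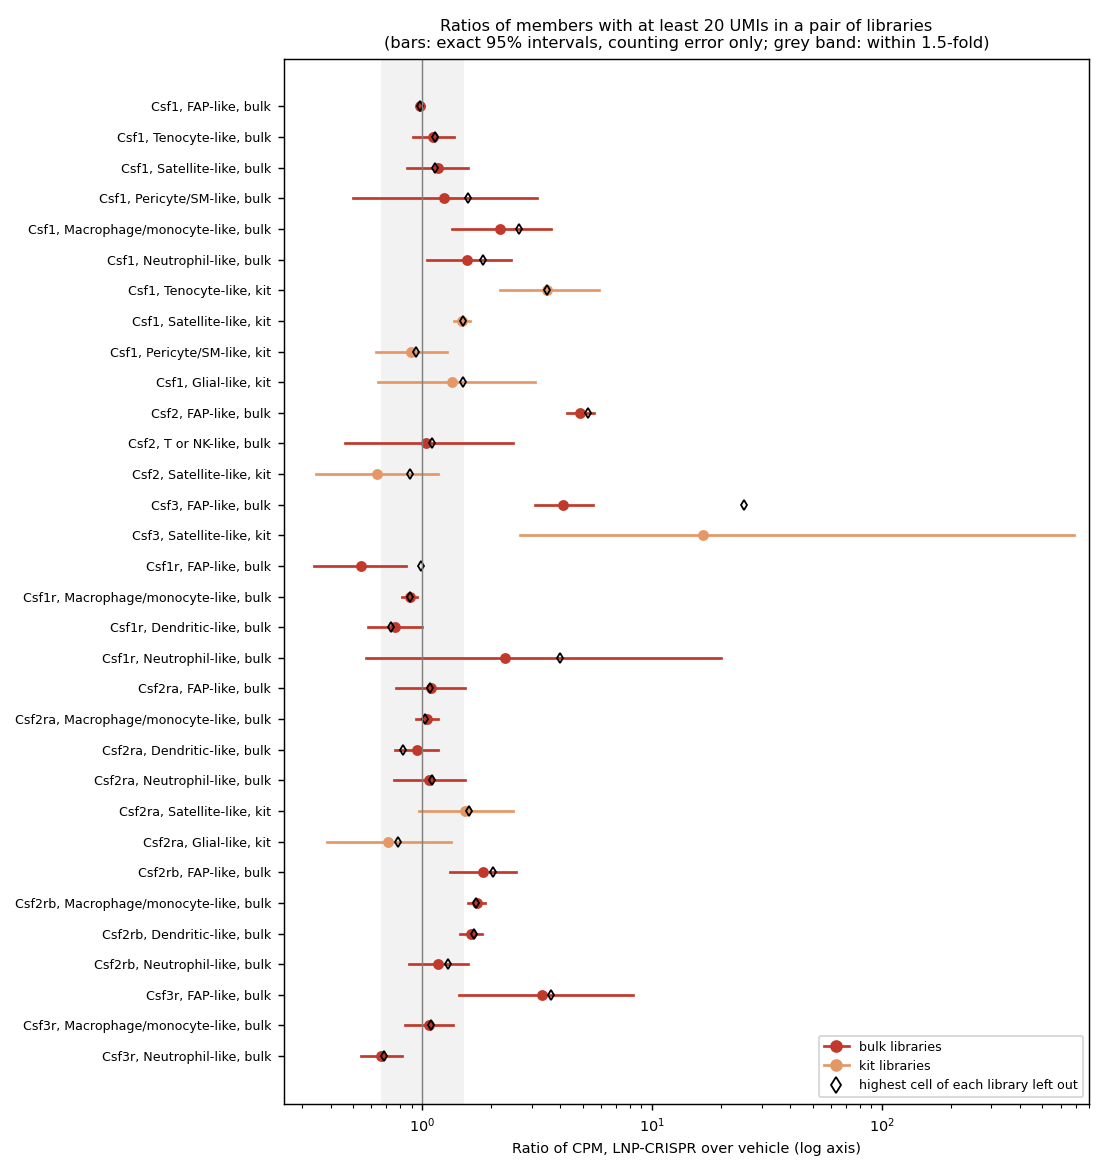
Ratio of CPM, LNP-CRISPR over vehicle (x axis, logarithmic), for each gene, class and isolation (rows) with at least 20 UMIs in the pair, with exact 95% intervals, black diamonds for the ratio without the highest cell of each library, and a grey band within 1.5-fold. Csf2rb lies right of the band in macrophage- or monocyte-like cells (1.73) and Csf3r at its left edge in neutrophil-like cells (0.664), while the diamond for Csf3 in FAP-like cells stands far from its circle.

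**Figure D4:**
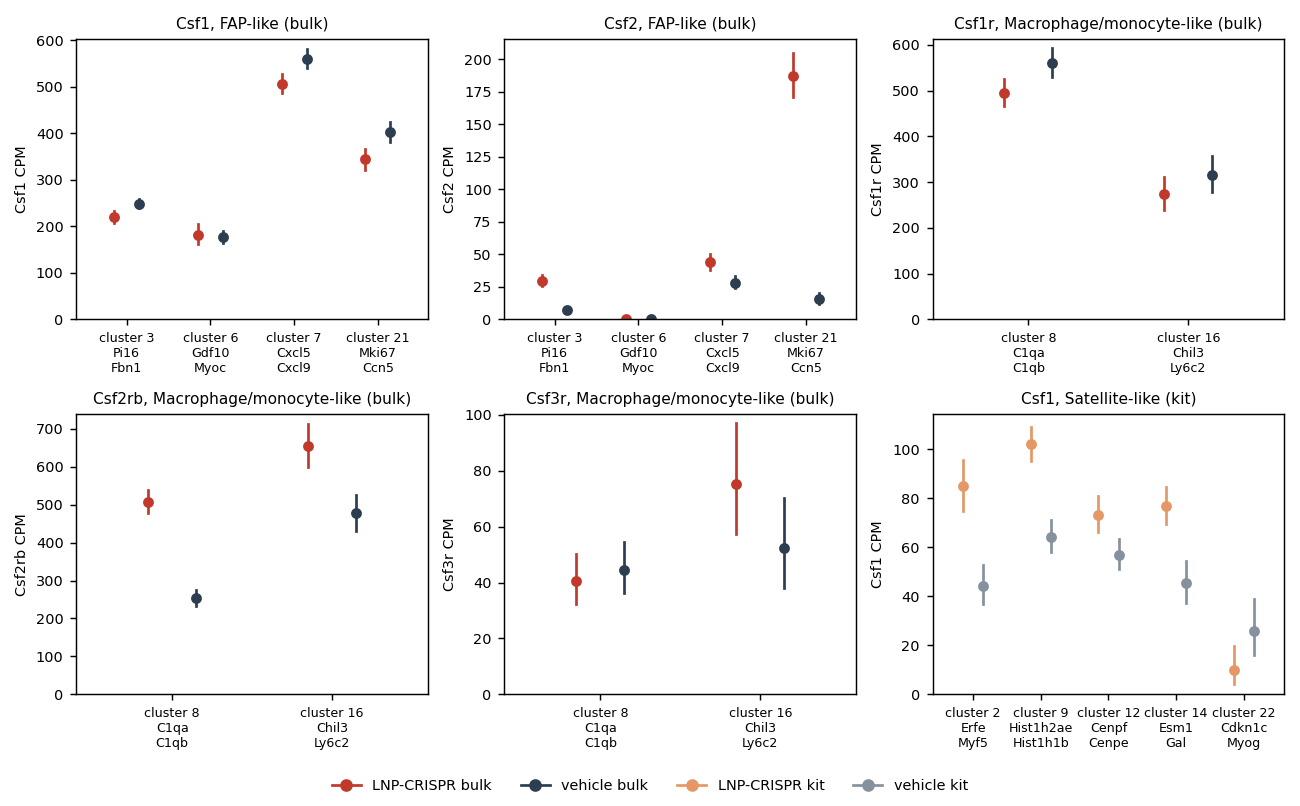
Levels (y axes, CPM, from 0) with exact Poisson 95% intervals in the clusters of a class (x axes, cluster number and leading genes), LNP-CRISPR left of vehicle. Among the clusters drawn, which have at least 20 cells per library, Csf1 in FAP-like cells varies more by cluster (182 to 506 CPM in LNP-CRISPR bulk) than by treatment, whereas Csf2rb is higher in LNP-CRISPR bulk in both macrophage- or monocyte-like clusters.

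Set against all genes, a ratio of at least 1.5 or at most 1/1.5 was the measure of size. In FAP-like cells 10.3% of all genes with at least 20 UMIs passed it, and of the 7 CSF genes 4 were higher (Csf2, Csf3, Csf2rb and Csf3r) and 1 was lower (Csf1r). For Csf2rb the direction differed by cluster, as given above. The Csf3r value came from only 20 and 9 UMIs, or 1.34 and 0.402 CPM (3.32, 1.45 to 8.29). The neutrophil markers summed to 142 and 54.5 CPM in these cells, and their part in it was not tested. The lower Csf1r value rested on 1 vehicle cell, without the highest cells its ratio was 0.994, and it was above 1 with equal weight per cell and after thinning. In macrophage- or monocyte-like cells 13.8% of genes passed, and 2 of 5 CSF genes were higher (Csf1 and Csf2rb). In dendritic-like cells 23.1% passed, with 1 of 3 CSF genes higher (Csf2rb). In neutrophil-like cells 38.0% passed, so the 3 of 5 CSF genes past it (Csf1 and Csf1r higher, Csf3r lower) stand against a large background from few UMIs. In satellite-like cells of the kit libraries 8.55% passed, with Csf3 and Csf2ra higher and Csf2 lower among 4 CSF genes, all 3 at under 3 CPM in both libraries. The intervals for Csf2 and Csf2ra include 1, and the Csf2 ratio of 0.639 was 1.76 after thinning. Csf1 in satellite-like cells, at 1.49, lay just inside.

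Genes that act downstream of the receptors were described as a list of 32 genes that also held related ligands. Cish, a feedback inhibitor that STAT5 induces after GM-CSF, IL-3 or IL-5, was higher in LNP-CRISPR bulk in each of the 3 myeloid classes. It was at 32.9 and 13.6 CPM in macrophage- or monocyte-like cells (2.42, 1.66 to 3.59), 57.8 and 11.0 CPM in dendritic-like cells (5.25, 2.75 to 10.9), and 79.8 and 12.7 CPM in neutrophil-like cells, the last from 33 UMIs and 1 UMI (6.30, 1.05 to 256). FAP-like cells had 20.2 and 11.8 CPM of Cish (1.72, 1.45 to 2.03). Socs3, a feedback inhibitor that STAT3 induces, was at 350 and 139 CPM in neutrophil-like cells (2.51, 1.36 to 5.15) and 237 and 130 CPM in dendritic-like cells (1.82, 1.46 to 2.27). In macrophage- or monocyte-like cells, 3 of 27 measured list genes were past 1.5-fold, or 11.1% beside 13.8% of all genes. All 3 were higher: Csf2rb2, Cish and Cebpe, a granulocyte transcription factor gene with 20 and 3 UMIs. The list's median log2 ratio there was 0.14, beside -0.04 over all genes. Medians above that of all genes also occurred in tenocyte-like and satellite-like bulk cells (given below). Their Csf2rb levels were 1.23 and 0 CPM, and 0.688 and 0.461 CPM. The part of receptor signalling in these ratios was not tested.

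In FAP-like cells 4 of 26 measured genes of the signalling list were past 1.5-fold, or 15.4% beside 10.3% of all genes. All 4 were higher (Cish, Csf2rb2, Irf8 and Ptpn6), with a median log2 ratio of 0.09 beside -0.05 over all genes. In dendritic-like cells 5 genes were higher and 3 lower of 25, or 32.0% past 1.5-fold beside 23.1% of all genes, with a median of 0.07 beside -0.05. The 5 were Jak2, Socs3, Csf2rb2, Stat5a and Cish. The 3 lower ones were Klf4 at 107 and 266 CPM (0.404, 0.315 to 0.513), Il3ra at 14.2 and 30.3 CPM, and Shc1 at 13 and 26.6 CPM. In neutrophil-like cells 3 of 17 were higher (Jak2, Socs3 and Cish), or 17.6% beside 38.0% of all genes, and the abundant survival gene Mcl1 was at 2441 and 2394 CPM (1.02, 0.872 to 1.20). In satellite-like kit cells 1 of 22 was past it, or 4.55% beside 8.55% of all genes. It was Csf2rb2, from 11 and 14 UMIs (0.593, 0.244 to 1.41). In the classes above, the members past 1.5-fold but not past 2-fold are named because their counts are small, a choice made after their values were seen. The other bulk classes also had medians above those of all genes. Satellite-like bulk cells had 6 genes higher and 1 lower of 18, 38.9% beside 17.0% (0.19 beside 0.02). Tenocyte-like cells had 5 of 20, all higher, beside 17.1% (0.20 beside -0.04). T or NK-like cells had 7 of 20, all higher, beside 27.9% (0.34 beside 0.05). Pericyte- or smooth muscle-like cells had 3 of 13, all lower, 23.1% beside 24.4% (0.20 beside 0.02). Il5, whose product signals through CSF2RB in eosinophils, was at 1340 CPM in T or NK-like cells of LNP-CRISPR bulk and 338 CPM in those of vehicle bulk, from 595 and 78 UMIs (3.96, 3.12 to 5.08).

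**Figure D5:**
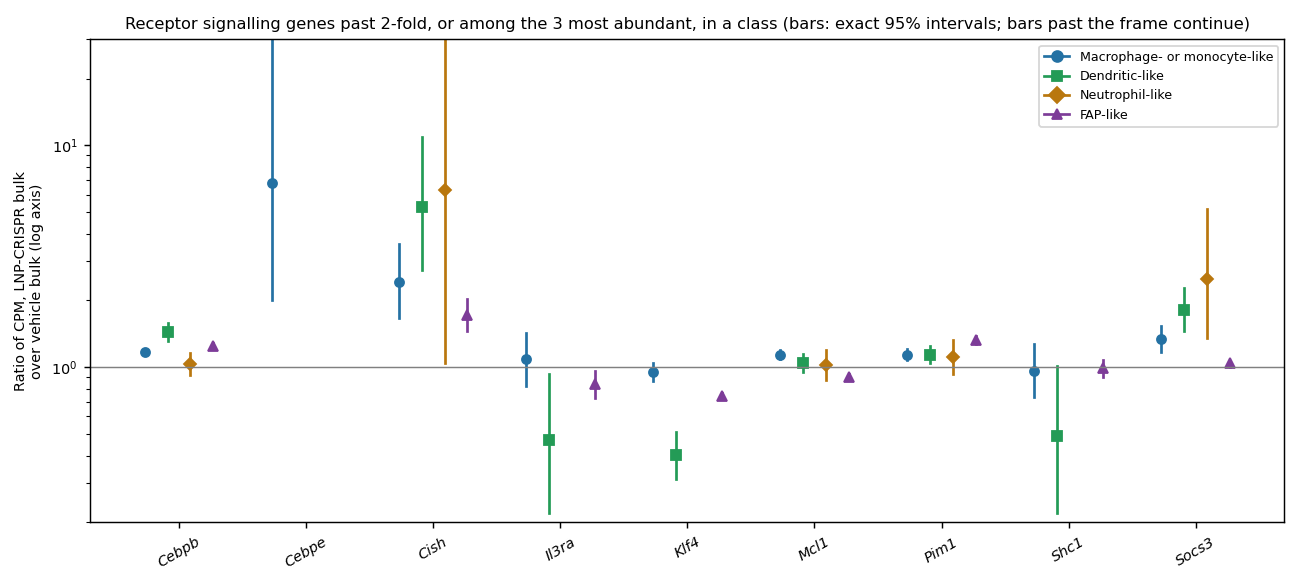
Ratio of CPM, LNP-CRISPR bulk over vehicle bulk (y axis, logarithmic), with exact 95% intervals, for receptor signalling genes past 2-fold or among the 3 most abundant in a class (x axis), in 4 classes (colours and shapes). Cish is above 1 in all 4 classes shown (1.72 to 6.30), whereas Mcl1 and Pim1 lie between 1.02 and 1.14 in the myeloid classes.

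Genes that switch the ligand genes on, or remove their RNA, formed a second list of 17. In FAP-like cells 3 of 15 measured genes were past 1.5-fold, all higher, beside 10.3% of all genes, with a median log2 ratio of 0.17 beside -0.05 over all genes. The cytokine genes Il1b and Tnf, known inducers of CSF genes in fibroblasts, were at 6.01 and 0.937 CPM (6.41, 3.95 to 10.9) and 3.41 and 1.03 CPM (3.32, 1.99 to 5.69) in those cells. These low levels stand beside the myeloid marker sums given above, and their part in them was not tested. Zc3h12a, which encodes the RNase Regnase-1, was at 71.7 and 38.9 CPM (1.84, 1.69 to 2.02). The most abundant members were the decay factor genes Zfp36 at 864 and 717 CPM (1.2, 1.18 to 1.23) and Zfp36l1 at 835 and 627 CPM (1.33, 1.30 to 1.37), and the NF-kB subunit gene Nfkb1 at 805 and 563 CPM (1.43, 1.39 to 1.47).

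In macrophage- or monocyte-like cells, 2 of 16 genes of that list, or 12.5% beside 13.8% of all genes, were past 1.5-fold, Il1b higher at 575 and 373 CPM (1.54, 1.43 to 1.66) and Il1a lower at 15.2 and 24.1 CPM (0.631, 0.423 to 0.932). The median log2 ratio was -0.11 beside -0.04 over all genes. In dendritic-like cells 2 of 14 were higher (Zfp36l1 and Zc3h12a), or 14.3% beside 23.1% of all genes, with a median of 0.11 beside -0.05. In neutrophil-like cells 2 of 12 were higher (Zfp36l1 and Rela) and 3 lower (Zc3h12a, Tnf and Hnrnpd), or 41.7% beside 38.0% of all genes, with a median of -0.36 beside -0.07. In satellite-like kit cells 1 of 14, or 7.14% beside 8.55% of all genes, was higher, Zc3h12a at 26.2 and 16.4 CPM (1.60, 1.40 to 1.84). Medians above those of all genes also occurred in the other bulk classes. Tenocyte-like cells had 4 of 13 past 1.5-fold, 30.8% beside 17.1% (median 0.28 beside -0.04). Satellite-like bulk cells had 5 of 13, 38.5% beside 17.0% (0.28 beside 0.02). Pericyte- or smooth muscle-like cells had 4 of 13, 30.8% beside 24.4% (0.15 beside 0.02). T or NK-like cells had 2 of 13, 15.4% beside 27.9% (0.31 beside 0.05). Kit classes had such medians too. Fibre-like cells had 6 of 8, 75.0% beside 31.2% (1.05 beside 0.20). Pericyte- or smooth muscle-like kit cells had 2 of 13, 15.4% beside 16.5% (0.30 beside -0.08). Glial-like cells had 3 of 13, 23.1% beside 13.3% (0.24 beside 0.02). Tenocyte-like kit cells had 2 of 12, 16.7% beside 28.3% (0.08 beside 0.02).

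Likeness of pattern was measured as Pearson's r of log2(CPM + 1) over 18 class-by-library points with at least 50 cells, among 13708 genes. These points share libraries, so the values are descriptions. Csf1r was most like Cd68, a lysosomal macrophage gene (0.989), then Ccl9 (0.988) and Mpeg1 (0.983). Csf2rb was most like Spi1 (0.994), which encodes the myeloid transcription factor PU.1, then Gm34084 (0.988) and Ifitm6 (0.988). Csf2ra was most like Rilpl2 (0.978), Cyth1 (0.972) and Evi2 (0.971), and Csf3r like Arg2 (0.985), Trem3 (0.973) and Slfn4 (0.970). The ligands had looser neighbours. The best for Csf1 was Gm7694 (0.894), for Csf2 Qprt (0.902) and for Csf3 Ifitm5 (0.876).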

How the data were processed

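The authors' deposited matrices hold raw counts, 1 UMI count per gene and barcode for each library, from 10x Genomics Chromium 3′ v3.1 kits per the labels' protocols. Per the file headers the matrices were written by cellranger 5.0.1, but version 7.0.1 of Cell Ranger, with mm10, appears in the submitters' processing notes. Which version made the counts could not be settled. Counting of reads shared by paralogues is not described in the sources used here.

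Barcodes under 200 genes or over 20% mitochondrial UMIs were left out, and Scrublet doublets (expected rate 0.05) were removed. The caller marked 0.260% to 0.496% of cells per library and so did not work, and undetected doublets remain. Cells were normalised to 10000 UMIs, logged and clustered with scanpy 1.11.5 (2000 variable genes without the CSF genes and Csf2rb2, 30 principal components, 15 neighbours, Leiden resolution 1.0, no integration), giving 26 clusters. Clusters were named from 16 marker lists by at least 3 enriched markers, and 2 clusters stayed unnamed. Names rebuilt this way may differ from the study's. Classes with at least 20 cells in both libraries of a pair were compared. CPM had exact Poisson 95% intervals and ratios exact conditional binomial ones (scipy 1.17.1). Limits for 0 UMIs are 3 counts of the class total.

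The genes, lists and tests were chosen with earlier results of these data known. Named genes were the 7 CSF genes, the 3 most abundant and all past 2-fold of each list in a class, and the 3 genes most alike. The ratio step was tested on simulated Poisson counts of class totals. These had no grouping of UMIs within cells, so the test does not cover genes held by few cells.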

Additional observations from a re-analysis of the deposited data

Results flagged for a closer look

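Csf1 in pericyte- or smooth muscle-like cells had ratios on opposite sides of 1 in the 2 isolations. In the kit pair it was 0.892, from 99 UMIs in LNP-CRISPR kit and 50 in vehicle kit, and in the bulk pair 1.24, from 13 UMIs in LNP-CRISPR bulk and 10 in vehicle bulk. The difference was not tested, each side is 1 library against 1, and both intervals include 1. With mitochondrial UMIs limited to 10% the kit ratio was 1.49.

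Barcodes left out by the filters were used in no comparison. In the 168 such barcodes of LNP-CRISPR bulk, Csf1 was at 221 CPM (176 to 275), and in the 106 of vehicle bulk at 97.5 CPM (71.4 to 130). Csf3r was at 82.7 CPM (56.2 to 117) in those of LNP-CRISPR bulk and 19.1 CPM (8.73 to 36.2) in those of vehicle bulk. Both genes stood out because these barcodes lie outside the comparisons and the LNP-CRISPR level was above that of vehicle.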

How the results depend on the processing

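Each of 32 ratios was recomputed under 9 alternatives, which gave 282 values. Of these, 249 stayed within the 95% interval of the reported ratio, 29 left it, and 4 crossed 1 although the reported interval did not include 1. The 4 were Csf1r in FAP-like cells with equal weight per cell (3.42) and after thinning to 1000 UMIs (4.45), and Csf1r in dendritic-like cells with Leiden resolution 2.0 (1.16) and after thinning (1.2). Equal weight per cell gave 1.06 for Csf1, 3.90 for Csf2, 5.96 for Csf3, 2.57 for Csf2rb and 19.9 for Csf3r in FAP-like cells, 0.808 for Csf1r and 1.22 for Csf2ra in macrophage- or monocyte-like cells, 0.833 for Csf3r in neutrophil-like cells and 1.65 for Csf1 in satellite-like kit cells. Thinning gave 1.19 for Csf1, 11.1 for Csf2, 2.96 for Csf3 and 5.93 for Csf2rb in FAP-like cells, 0.797 for Csf1r and 1.2 for Csf2ra in macrophage- or monocyte-like cells, 2.54 for Csf2rb in dendritic-like cells and 0.893 for Csf3r in neutrophil-like cells. Leaving out the highest cell gave 25.2 for Csf3 in FAP-like cells, and allowing the CSF genes among the variable genes gave 1.87 for Csf2rb in dendritic-like cells. Some ratios whose reported interval includes 1 also crossed 1: Csf1 in FAP-like cells (above), after thinning Csf2ra in FAP-like cells (0.741), Csf2ra in dendritic-like cells (4.33) and Csf2 in satellite-like kit cells (1.76), with equal weight Csf1 in tenocyte-like bulk cells (0.798), with at most 10% mitochondrial UMIs Csf1 in pericyte- or smooth muscle-like kit cells (1.49), and with classes by own marker score Csf1 in glial-like kit cells (0.367). The cause was not tested. Of 576 recomputed levels, 476 stayed within their interval, and 41 of the 100 that did not came from thinning. Of 48 recomputed list counts, 34 moved by more than 1.5 times, among them all of the signalling list in FAP-like cells past 2-fold (0, against 4 past 1.5-fold). No paired analysis was possible because the groups compared share only 1 replicate number, each being 1 library. A model of treatment plus isolation over the 4 libraries, for classes present in both isolations, was not run. Depth limits the neutrophil-like values, since vehicle bulk had 33 such cells at a median of 1637 UMIs.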
